A study of Mus musculus with 18 samples.

Results

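The 9 genes described here encode the ionotropic glutamate receptor subunits of the AMPA class (Gria1, Gria2, Gria3 and Gria4) and of the kainate class (Grik1, Grik2, Grik3, Grik4 and Grik5). They were taken by gene symbol from 26601 annotated genes in the authors' deposited comparison tables (the count tables hold 37620). All 9 of 9 were found and passed the filter on low counts. RNA was sequenced from cells sorted from the lateral cortex of C57BL/6 mouse embryos at embryonic day 14.5. All groups share the genotype written Btg2GFP/Tubb3GFP, with a reporter each at Btg2, an antiproliferative gene of progenitors that turn to neurogenesis, and at Tubb3, which encodes a neuronal tubulin. PP denotes Btg2-negative proliferating progenitors (RFPminus), DP denotes Btg2-positive differentiating progenitors (RFPplus) and Neuron denotes Tubb3-positive cells (GFPplus), so a cell's group rests on reporter protein and not on its RNA. Sample titles name the Btg2 colour RFP, whereas GFP stands for both genes in the genotype. Each group has 3 libraries, each made from cells pooled from more than 3 embryos of different litters.

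AMPA and kainate receptors are cation channels opened by glutamate, each built from 4 subunits that line a shared pore. AMPA receptors carry most of the fast excitatory current of the mature cortex, and kainate receptors both carry current and tune transmitter release. In the embryonic cortex both classes are known to be present before most synapses have formed. GluA2 (Gria2) sets calcium entry: its pore codon is recoded by RNA editing from glutamine to arginine at the so-called Q/R site, which blocks calcium. GluK1 (Grik1) and GluK2 (Grik2) are edited at the matching codon. GluK1, GluK2 and GluK3 (Grik3) can form channels on their own, while GluK4 (Grik4) and GluK5 (Grik5) need one of these as a partner.

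The coding stretches around the Q/R site are shown for the 3 subunits known to be edited there and for Gria1 and Grik3, the members with the highest fitted folds in Neuron. Each runs 5′ to 3′ on the coding strand of a GENCODE M21 transcript (GRCm38), with the genomic Q/R codon, CAG for glutamine, in capitals.
Gria1: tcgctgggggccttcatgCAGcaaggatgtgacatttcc
Gria2: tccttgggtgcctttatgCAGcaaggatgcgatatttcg
Grik1: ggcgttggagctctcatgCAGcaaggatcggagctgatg
Grik2: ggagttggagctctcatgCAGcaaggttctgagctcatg
Grik3: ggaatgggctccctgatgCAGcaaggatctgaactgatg
The codon lies in exon 11 of 16 at chr11:57243094-57243096 (plus strand) in Gria1, and in exon 11 of 16 at chr3:80706911-80706913 (minus strand) in Gria2. It lies in exon 13 of 18 at chr16:87940542-87940544 (minus strand) in Grik1 and in exon 13 of 17 at chr10:49244329-49244331 (minus strand) in Grik2. In Grik3 it lies in exon 12 of 16 at chr4:125691207-125691209 (plus strand). The genomic codon is CAG in 8 of the 9 genes and CAA, which also codes for glutamine, in Gria4. Counts per gene do not measure editing, so the levels given next are of edited and unedited transcripts together.

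Libraries held between 34337209 and 55935128 counts. Levels are CPM, a gene's counts in the library's scaled total, per 1e+06 counts; each ± is the SD of a group's 3 libraries (n = 3). Libraries are named by the numbers in the count tables: L222, L355 and L393 are PP, L223, L356 and L394 are DP, and L224, L357 and L395 are Neuron. The labelled identities were followed by marker lists. The neuron list includes Tubb3, the gene whose reporter defined Neuron, so its part in that list was not independent of the sort. The summed level of 6 neuron markers was 364 to 546 CPM in PP, 2089.9 to 2789 in DP and 8528 to 9252 in Neuron, and that of 8 radial glia markers, the dividing cells of the ventricular wall, was 5403 to 6319, 2494 to 3625 and 298 to 380.1. Within PP, the summed level of 10 interneuron markers fell from 52.6 CPM in L222 to 17.3 in L355 and 5.69 in L393. That of 6 red blood cell markers was highest in L222, at 15270 against 8352 and 8776. The sum of 6 endothelial markers was highest in L393, at 21.1 against 6.74 in L222 and 9.53 in L355. In sorted bulk samples, fewer cells of a type and less RNA per cell cannot be told apart.

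All 4 AMPA subunits were higher in Neuron than in both progenitor groups, and they entered Neuron from very different progenitor levels. Gria2, already high in progenitors, rose 4.88-fold from DP, while Gria1 rose 89.9-fold from 2.73 CPM. Between PP and DP, Gria1 rose 2.02-fold, Gria3 fell 1.90-fold, and Gria2 and Gria4 did not pass the test. Of the 9 members, 5 passed the test in DP against PP (3 higher, 2 lower) where 41.4% of the 18627 features tested did (21.3% higher and 20.2% lower). All 9 passed in Neuron against DP (7 higher, 2 lower), where 67.3% of features did (33.1% higher, 34.2% lower), and 6 passed in Neuron against PP, all higher, where 75.3% did (36.7% higher, 38.6% lower). Libraries of the groups did not overlap for 6 members in DP against PP (3 higher, 3 lower; background 49.7%, 25.1% higher and 24.7% lower) and for 9 in Neuron against DP (7 higher, 2 lower; background 72.4%, 35.5% and 36.9%). In Neuron against PP they did not overlap for 6, all higher, where 78.6% of features did not (38.5% higher, 40.1% lower). With backgrounds this high, the sizes are given for each member. The 2 steps share the DP libraries.

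**Figure D1:**
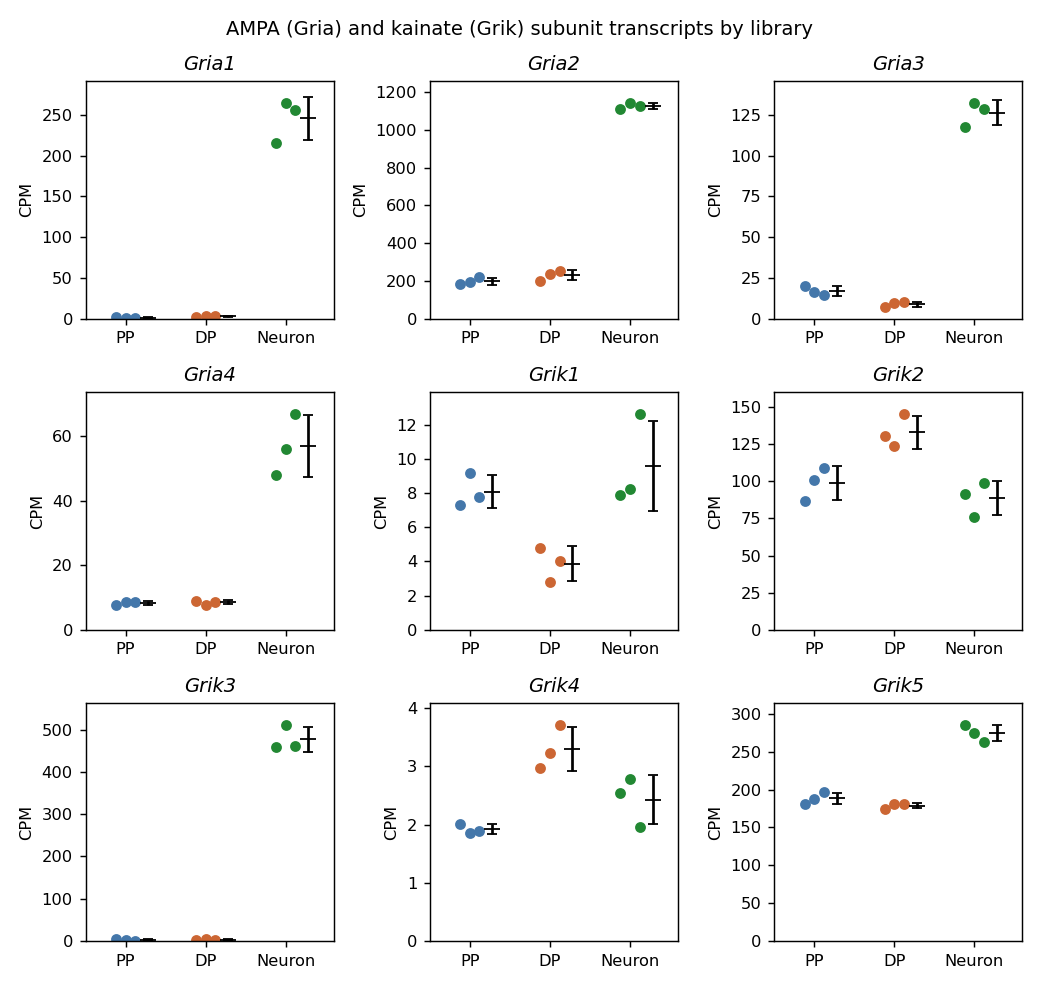
CPM of each subunit gene in the 9 libraries (points; each panel has its own linear axis from 0), with mean and SD of the 3 libraries of a group beside them. Gria1 and Grik3 lie near 0 in all PP and DP libraries and above 200 in every Neuron library, while Grik2 and Grik4 are highest in DP.

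Gria1 (chromosome 11, 56824889 to 57143746, plus strand, mm9) encodes GluA1, a subunit of calcium-permeable AMPA receptors and of receptors moved into synapses during plasticity. Its level was 1.80, 1.26 and 1.07 CPM in the PP libraries L222, L355 and L393, 1.81, 2.87 and 3.50 in the DP libraries L223, L356 and L394, and 216, 265 and 256 in the Neuron libraries L224, L357 and L395. Every DP library lay above every PP library, the closest being L223 and L222 at nearly the same level, and Neuron lay far above both. These progenitor levels rest on 52 to 67 reads per PP library and 77 to 148 per DP library, against 9211 to 13034 in Neuron. The fitted log2 fold change was 1.01 in DP against PP (approximate SE 0.245, edgeR quasi-likelihood adjusted p = 0.00621) and 6.49 in Neuron against DP (SE 0.205, adjusted p = 2.67e-10), the 73rd highest of all features tested.

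Gria2 (chromosome 3, 80488858 to 80606713, minus strand, mm9) encodes GluA2, the subunit that sets calcium entry. It stood at 182, 196 and 218 CPM across PP, 200.1, 238 and 255 across DP and 1108, 1144 and 1127 across Neuron. The PP and DP libraries overlapped, and the Neuron libraries lay together well above them with an SD of 17.8 CPM around a mean of 1126. The log2 fold change of DP against PP was 0.22 (approximate SE 0.0953, approximate 95% interval 0.03 to 0.40, edgeR adjusted p = 0.0932). With the runs of consecutive library numbers as a block the same difference, 0.21, passed (edgeR adjusted p = 0.0227), and it also passed at 0.30 without PP library L393 (0.0338), 0.32 without DP library L223 (0.00963) and 0.26 without the 3 libraries L222, L223 and L224 (0.0331). In Neuron against DP it was 2.29 (SE 0.0995, adjusted p = 2.36e-09).

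Gria3 (chromosome X, 38754031 to 39031778, plus strand, mm9) encodes GluA3, which pairs mostly with GluA2. Its level was 20.1, 16.3 and 14.4 CPM across PP, 7.23, 9.38 and 10.1 across DP and 118, 133 and 129 across Neuron. DP was the lowest group, with no overlap with PP. Gria3 was the only AMPA gene called lower in DP than in PP (log2 -0.93, approximate SE 0.139, edgeR adjusted p = 0.000274), and it then rose by 3.83 on the log2 scale into Neuron, 14.2-fold (SE 0.145, adjusted p = 8.80e-10).

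Gria4 (chromosome 9, 4417899 to 4796234, minus strand, mm9) encodes GluA4, a subunit with fast kinetics. It stood at 7.63, 8.54 and 8.57 CPM across PP, 9.06, 7.81 and 8.56 across DP and 47.9, 56.0 and 66.9 across Neuron. The progenitor groups overlapped, and their difference was 0.04 on the log2 scale, with an approximate 95% interval of -0.21 to 0.28 (edgeR adjusted p = 0.844). Neuron was 6.72-fold above DP (log2 2.75, SE 0.125, adjusted p = 3.34e-09).

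The kainate genes did not move as one group. Grik3 rose 146-fold from DP to Neuron, Grik1 and Grik5 rose 2.48-fold and 1.54-fold, and Grik2 and Grik4 fell 1.5-fold and 1.35-fold. Against PP, Grik1, Grik2 and Grik4 did not pass the test in Neuron. In DP against PP, Grik2 and Grik4 were higher, Grik1 was lower, and Grik3 and Grik5 did not pass.

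Grik3 (chromosome 4, 125167944 to 125391417, plus strand, mm9) encodes GluK3, a pore subunit of low glutamate affinity. Its level was 4.32, 1.26 and 0.801 CPM across PP, 3.32, 3.55 and 2.92 across DP and 459, 511 and 461 across Neuron. Neuron stood apart without overlap, while PP library L222 lay above all DP libraries and the other PP libraries below them. The PP values rest on 161, 59 and 39 reads. The difference between DP and PP was decided by that library: log2 0.70 with all libraries (approximate SE 0.421, edgeR adjusted p = 0.213), 1.67 without L222 (adjusted p = 3.43e-05) and 1.67 without L222, L223 and L224 (adjusted p = 0.000285). The summed interneuron markers in PP were 52.6, 17.3 and 5.69 CPM over L222, L355 and L393, the same order as for Grik3. In L222 their sum held 22.9 CPM of Dlx1 and 20.1 of Dlx2. Over the same libraries, summed neuron markers were 546, 453 and 364 CPM and summed radial glia markers 6319, 6136 and 5403. The part of any of these cells in the result was not tested. In Neuron against DP the log2 fold change was 7.19 (SE 0.389, adjusted p = 1.32e-08), the 34th highest of all features tested.

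Grik1 (chromosome 16, 87896441 to 88289947, minus strand, mm9), the gene of GluK1, was low in every group, at 7.33, 9.16 and 7.75 CPM across PP, 4.78, 2.79 and 4.05 across DP and 7.89, 8.25 and 12.6 across Neuron. DP lay below both other groups with no overlap. The log2 fold change was -1.07 in DP against PP (approximate SE 0.223, edgeR adjusted p = 0.00262) and 1.31 in Neuron against DP (SE 0.223, adjusted p = 0.000258). Neuron and PP overlapped, with a log2 difference of 0.24 and an approximate 95% interval of -0.18 to 0.66 (adjusted p = 0.318). Gria3 and Grik1 were the 2 members called lower in DP than in PP and higher in Neuron than in DP, and both differences draw on the same DP libraries.

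Grik2 (chromosome 10, 48819266 to 49508572, minus strand, mm9) encodes GluK2, the main pore subunit of many kainate receptors. It stood at 86.6, 101 and 109 CPM across PP, 130.3, 124 and 146 across DP and 91.6, 76.3 and 98.7 across Neuron. Every DP library lay above every library of the other groups. DP was 1.35-fold above PP (log2 0.43, approximate SE 0.110, edgeR adjusted p = 0.00834) and Neuron 1.5-fold below DP (log2 -0.58, SE 0.110, adjusted p = 0.000557). Neuron against PP gave -0.15 with an approximate 95% interval of -0.37 to 0.06 (adjusted p = 0.224).

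Grik5 (chromosome 7, 25794872 to 25857388, minus strand, mm9) encodes GluK5, a high-affinity partner subunit. Its level was 181, 188 and 196 CPM across PP, 174, 180.5 and 181 across DP and 285, 275 and 264 across Neuron. Of the 6 members that passed in Neuron against PP it had the smallest difference, 0.54 on the log2 scale (approximate SE 0.0612, edgeR adjusted p = 6.51e-06) and of 0.62 against DP (adjusted p = 2.72e-06). DP against PP was -0.08, with an approximate 95% interval of -0.20 to 0.04 (adjusted p = 0.347).

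Grik4 (chromosome 9, 42326218 to 42752576, minus strand, mm9) encodes GluK4, the other high-affinity partner. It was scarce, at 2.01, 1.86 and 1.89 CPM across PP, 2.97, 3.24 and 3.71 across DP and 2.55, 2.78 and 1.96 across Neuron. These values rest on 254 reads over the PP libraries, 447 over DP and 322 over Neuron. DP lay above both groups with no overlap. DP exceeded PP 1.72-fold (log2 0.78, approximate SE 0.174, edgeR adjusted p = 0.00375), and with paired-end runs alone this did not pass (log2 0.54, adjusted p = 0.0693). The fall into Neuron was close to the threshold (log2 -0.44, SE 0.171, adjusted p = 0.0398), and it did not pass when any 1 of the libraries L355 (PP), L356 and L394 (DP), or L224 and L395 (Neuron) was left out, with adjusted p-values of up to 0.156.

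**Figure D2:**
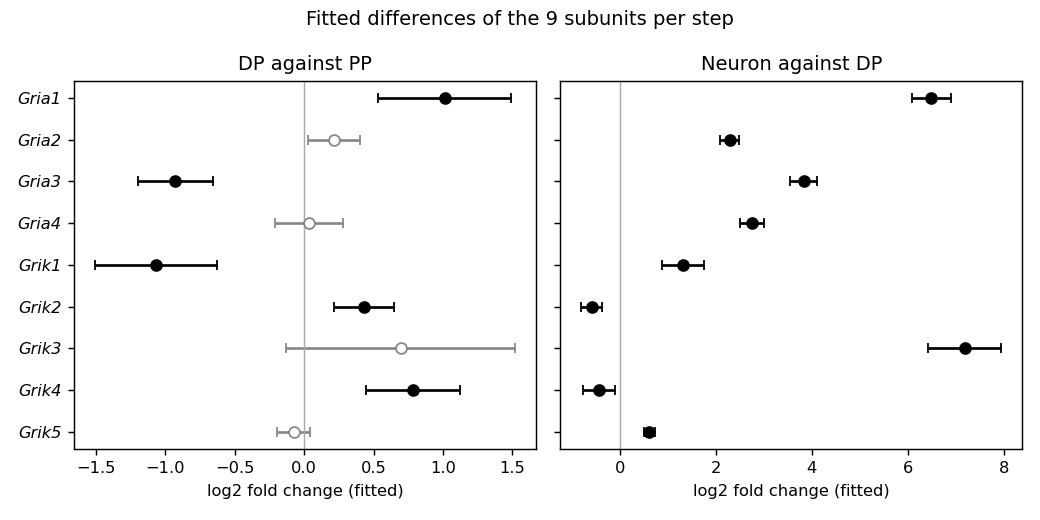
Fitted log2 fold change of each subunit gene in DP against PP (left) and Neuron against DP (right, wider axis), with approximate 95% intervals from the approximate SE. Filled points passed the adjusted p threshold of 0.05 and open points did not. Values run from -1.07 (Grik1) to 1.01 (Gria1) on the left, and from -0.58 (Grik2) to 7.19 (Grik3) on the right.

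In the authors' deposited table the values for the members lay close to these, with log2 fold changes of Neuron against DP of 6.49 for Gria1, 2.31 for Gria2 and 6.88 for Grik3. For Grik3 the authors' deposited table leaves the p-value and the adjusted p empty in both comparisons. The adjusted p of Grik4 in Neuron against DP in the authors' deposited table is 0.0585, on the other side of the threshold from the value found here, and that of Gria2 in DP against PP is 0.0930, on the same side.

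To set genes against each other, levels were divided by the gene model's length, giving RPKM. In PP the level per length was led by Grik5 (49.1 ± 2.00 RPKM), followed by Gria2 (28.6 ± 2.65) and Grik2 (11.9 ± 1.37). Below them came Grik1 (2.42), Gria3 (1.72) and Gria4 (1.32), and then Grik4 (0.325), Grik3 (0.237) and Gria1 (0.228), where each overlapped the next in its library range. DP kept the same first 3, at 46.6 ± 0.933 for Grik5, 33.2 ± 4.01 for Gria2 and 16.1 ± 1.35 for Grik2. Next in DP were Gria4 (1.35), Grik1 (1.16) and Gria3 (0.901), with neighbours that overlapped. In Neuron the order was Gria2 (162 ± 2.56), Grik5 (71.6 ± 2.86), Grik3 (53.1 ± 3.29), Gria1 (40.6 ± 4.34) and Gria3 (12.8 ± 0.784), with no overlap between neighbours, then Grik2 (10.7) and Gria4 (9.08), which overlapped, Grik1 (2.88) and Grik4 (0.411). With the length of the coding sequence in place of the gene model, Gria2 led in PP (75.0 RPKM, Grik5 64.1) and in DP (87.0, Grik5 60.7), and Grik3 (173) stood above Grik5 (93.4) in Neuron, so the order between these genes depends on the length used.

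Summed over its subunits, the AMPA class reached 31.8 ± 2.38 RPKM in PP, 35.9 ± 4.24 in DP and 224.4 ± 8.64 in Neuron. The kainate class reached 64.0 ± 3.21, 64.7 ± 1.87 and 139 ± 2.39. On this scale the kainate sum was above the AMPA sum in all progenitor libraries and below it in all Neuron libraries.

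The make-up of each class differed between groups. Gria2 made up 88.04%, 89.7% and 91.3% of the AMPA sum in the PP libraries, 92.1%, 92.8% and 92.5% in DP and 74.2%, 71.3% and 71.0% in Neuron. The share of Gria1 was 0.514% to 1.00% in PP, 0.960% to 1.46% in DP and 16.6% to 19.0% in Neuron. The share of Gria3 was lower in DP, at 2.50% ± 0.135, than in PP (5.46% ± 1.32) or Neuron (5.71% ± 0.135), and that of Gria4 stayed between 3.38% and 4.68% in all 9 libraries. Among kainate subunits, Grik3 went from 0.382% ± 0.359 in PP and 0.562% ± 0.0687 in DP to 38.3% ± 1.96 in Neuron. Grik5 held 76.7% ± 0.932 in PP, 71.9% ± 1.67 in DP and 51.6% ± 1.56 in Neuron, and Grik2 held 18.6% ± 1.23, 24.9% ± 1.42 and 7.76% ± 1.12. Shares within a class are tied, so that one rises as another falls: the level of Gria2 was highest in Neuron although its share was lowest there. For the shares of all members except Gria4 and Grik1, Neuron and DP did not overlap in any library. For each share without overlap the exact two-sided permutation test gave p = 0.1, the smallest that 3 against 3 libraries allow. With coding length the Grik3 share in Neuron was 57.0% and that of Grik5 30.8%.

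**Figure D3:**
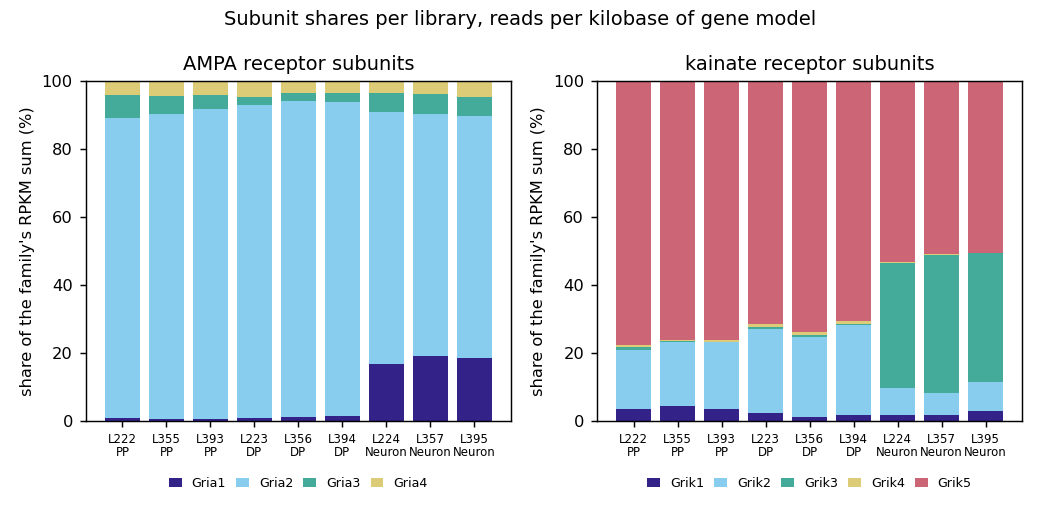
Share of each subunit in the RPKM sum of its class, in percent, stacked to 100 for each of the 9 libraries (left AMPA, right kainate; gene model length). Gria1 in the AMPA class and Grik3 in the kainate class are wide bands in the 3 Neuron libraries and thin ones elsewhere.

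Neuron marker genes had reads in the progenitor fractions, so the progenitor levels of the members were set beside those of marker genes as percentages of the Neuron mean. Gria2, Gria3 and Gria4 stood in PP at 17.7%, 13.4% and 14.5% of their Neuron level, above each of the 6 neuron markers. These markers ran from 0.576% (Stmn2, a tubulin-binding protein of growing axons) to 13.0% (Map2, a dendritic microtubule protein). The order of Gria3 and Map2 is not firm, since Gria3 stood at 12.2% without L222. Nor is that of Gria4 and Map2, since Gria4 ranged from 47.9 to 66.9 CPM over the Neuron libraries. In DP, Gria2, Gria3 and Gria4 stood at 20.5%, 7.03% and 14.9%. There 5 of the 6 neuron markers were at 24.4% (Tubb3) to 85.8% (Rbfox3) and Stmn2 was at 1.71%. Gria1 was at 0.560% in PP and at 1.11% in DP, and Grik3 at 0.446% (0.216% without L222) and 0.684%, the DP values being lower than that of Stmn2. The 6 projection neuron markers ranged from 0.851% to 31.1% in PP and from 12.7% to 47.0% in DP, and the 10 interneuron markers at 0.361% to 18.0% and 0.245% to 55.9%. Grik1, Grik2, Grik4 and Grik5 stood between 40.4% and 149.9% of Neuron in both progenitor groups. How much of the progenitor signal of any member came from neurons in the fraction was not tested.

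**Figure D4:**
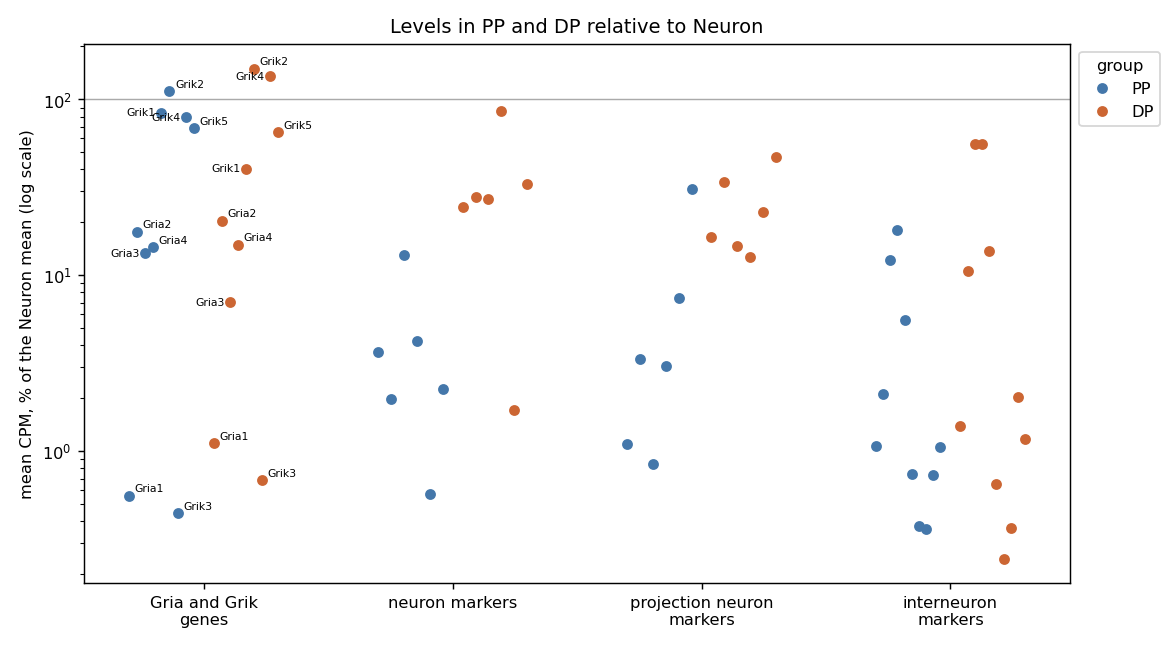
Mean level in PP (blue) and DP (orange) as a percentage of the Neuron mean, on a log axis, for the 9 members (named) and for 3 marker lists (1 point per gene); the line marks 100%. Gria1 and Grik3 lie lowest of the members, at about 1% or less, and Grik2 lies above the line in both groups.

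Other cell types also differed between the fractions. The summed level of interneuron markers was 5.69 to 52.6 CPM in PP, 29.5 to 155.3 in DP and 467 to 490.4 in Neuron, with 8 of 10 called higher in Neuron than in DP (33.1% of all features tested were). That of 7 Cajal-Retzius markers, early neurons of the cortical surface, was 6.62 to 12.6, 91.8 to 112 and 877 to 999. Reln alone averaged 812 CPM of this in Neuron. Of the 7, 5 were called higher and 1 lower in Neuron than in DP, where 33.1% and 34.2% of all features tested were. Ebf2 went from 8.88 CPM in DP to 3.43 in Neuron. Red blood cell markers were at 8352 to 15270 CPM in PP, 17.4 to 117 in DP and 8.96 to 13.4 in Neuron. They were lower in DP than in PP and lower again in Neuron. Oligodendrocyte precursor markers summed to 15.1 to 16.5 CPM in PP, 9.55 to 15.6 in DP and 1.28 to 1.52 in Neuron, with Sox10 at 0 reads in all Neuron libraries. The part of these cells in the results on the members was not tested.

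Transcripts of proteins that bind AMPA and kainate receptors, or serve their biogenesis or trafficking, were counted in the same libraries. Of 19 auxiliary and biogenesis genes, 17 were higher and 1 lower in Neuron than in DP, where 33.1% and 34.2% of all features tested were. Their median log2 fold change was 2.26, against -0.04 over all features and 2.29 over the members. In DP against PP, 6 were higher and 4 lower, where 21.3% and 20.2% of all features were. The median there was -0.10, against -0.02 over all features and 0.22 over the members. Cacng2, the gene of stargazin, which brings AMPA receptors to the synapse, rose in both steps, at 0.147 ± 0.132 CPM in PP, 0.753 ± 0.184 in DP and 34.6 ± 1.40 in Neuron. Its first step rests on few reads, 18 over the PP libraries and 101 over DP. Shisa6, which binds AMPA receptors and slows desensitisation, likewise rose from 0.996 ± 0.164 to 6.41 ± 0.520 and 83.3 ± 4.44. Frrs1l, needed to assemble AMPA receptors in the endoplasmic reticulum, rose in the first step, from 9.70 ± 3.41 to 86.0 ± 16.3, with 89.5 ± 4.72 in Neuron (edgeR adjusted p = 7.81e-07 and 0.806). Neto1, an auxiliary subunit of kainate receptors, stood at 0.412 ± 0.129, 0.531 ± 0.236 and 11.6 ± 2.37, rising in the second step (adjusted p = 1.04e-07). Cacng5, another transmembrane AMPA regulatory protein, was the 1 gene lower in Neuron, at 6.33 ± 1.82, 10.3 ± 4.11 and 1.40 ± 0.0564 (adjusted p = 6.34e-06 against DP).

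Of 19 scaffold and trafficking genes, 14 rose and 2 fell from PP to DP (median log2 0.54, against -0.02 over all features, of which 21.3% rose and 20.2% fell), and 15 rose and 1 fell from DP to Neuron (median 1.40, against -0.04, with 33.1% and 34.2%). Grip2, a scaffold that binds the tail of GluA2, rose from 0.881 ± 0.191 CPM in DP to 41.3 ± 6.01 in Neuron, and Camk2b, a kinase subunit of excitatory synapses, from 3.60 ± 0.643 to 182 ± 30.9. Camk2a, another subunit of that kinase, fell from 72.6 ± 2.84 CPM in PP to 15.4 ± 2.81 in DP (log2 -2.24, edgeR adjusted p = 3.80e-07), with 13.7 ± 1.80 in Neuron. Nptx2, a secreted pentraxin that clusters AMPA receptors, was highest in DP, with 1.60 ± 0.137 CPM in PP, 9.66 ± 1.17 in DP and 2.22 ± 0.206 in Neuron. Its relative Nptx1 rose in both steps, from 3.81 ± 0.565 to 18.2 ± 1.32 and 125 ± 14.4.

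**Figure D5:**
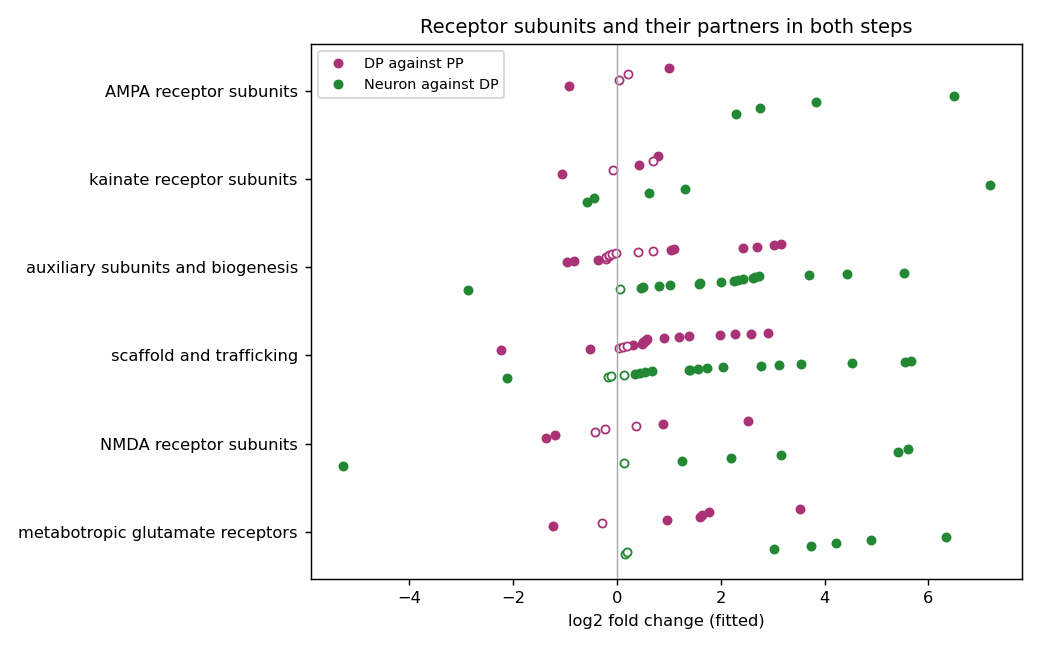
Fitted log2 fold changes of the genes of 6 lists in DP against PP (purple) and Neuron against DP (green), 1 point per gene, filled where the adjusted p was under 0.05. All AMPA genes lie to the right of 0 in green, while the kainate genes lie on both sides. Cacng3, with no reads in any DP library, is not drawn, nor is Grm6, which was not tested.

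Most other glutamate receptor genes tested were higher in Neuron than in DP. Over all features tested, 33.1% were higher and 34.2% lower in Neuron than in DP. From PP to DP, 21.3% of them rose and 20.2% fell. Of 7 NMDA receptor genes, 5 were higher and 1 lower in Neuron than in DP, and between PP and DP 2 rose and 2 fell. Grin1, the subunit that all NMDA receptors require, stood at 0.947 ± 0.287, 0.806 ± 0.240 and 39.1 ± 3.93 CPM. Grin2b stood at 6.59 ± 1.03, 2.87 ± 0.666 and 123 ± 16.7, with its lowest level in DP as for Gria3, and Grin2c was highest in DP, at 1.72 ± 0.219, 9.93 ± 1.94 and 0.255 ± 0.0300. Of 8 metabotropic receptor genes, 7 were tested, and 5 of these were higher in each step, with 1 lower in the first. Grid1, a relative of both classes that glutamate does not open, stood at 5.79 ± 0.131, 4.20 ± 0.667 and 8.36 ± 0.323 CPM, lowest in DP. Of 9 genes of glutamate transport and metabolism, 5 were higher and 3 lower in each step.

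All 3 genes of the editing enzyme family were higher in Neuron than in DP, where 33.1% of all features tested were. Adarb1, whose product edits the Q/R site of GluA2, stood at 22.3 ± 2.32 CPM in PP, 25.6 ± 0.585 in DP and 66.8 ± 2.95 in Neuron, with log2 fold changes of 0.20 (edgeR adjusted p = 0.0840) and 1.38 (adjusted p = 3.56e-08). Adar, the enzyme of other sites, stood at 144 ± 10.6, 153 ± 6.13 and 244 ± 11.8 (log2 0.67 into Neuron, adjusted p = 5.22e-06). Adarb2, a relative with no known catalytic activity, rose in both steps from 0.141 ± 0.0318 to 0.818 ± 0.191 and 8.65 ± 1.81. The first step of Adarb2 rests on 19 reads over the PP libraries and 111 over DP.

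For each member the genes with the nearest pattern were found by the root mean square distance of centred log2(CPM + 0.5) profiles over the 9 libraries, among 14814 features with a mean of at least 1 CPM. The nearest to Grik3 was Gria1 (distance 0.523), with Stmn2 next (0.536). Gria1 was nearest to Cdh13, a cadherin (0.265), Glra2, a glycine receptor subunit (0.282), and Lrfn5, a synaptic adhesion protein (0.297). Gria2 was nearest to Myc, a transcription factor (0.0855), and Gria3 to Ndrg1 (0.180), Epb4.1l1, a cytoskeletal protein that binds GluA1 (0.215), and Gap43, a protein of growth cones (0.215). Grik1 was nearest to Cntn3, a contactin (0.153), Grik2 to Gm11266 (0.0933), Grik4 to Golga4, a Golgi protein (0.109), Grik5 to Rbfa (0.0459) and Gria4 to 2810032G03Rik (0.0890). With 9 libraries in 3 groups such patterns are coarse.

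Some annotated features lie inside the members on the same strand, and how shared reads were assigned is unknown from the sources used here. The one with the most reads, AC163349.1 within Gria2, a feature of 111 bases annotated as a miRNA, had 206 to 449 reads per progenitor library and 1531 to 2121 per Neuron library, where Gria2 itself had 6780 to 12268 and 43755 to 56280. Ftl2, a pseudogene within Grik3, had 11 to 20 reads per progenitor library and 34 to 52 per Neuron library.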

How the data were processed

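Cells from 9 sorted pools were sequenced as 9 libraries, each in a single-read and a paired-end run (18 samples in the labels). The authors deposited whole-number counts per gene for each run, per the file headers, on mm9 with Ensembl genes. Among the tools in the submitters' processing notes, which state neither role nor order, are featureCounts 1.4.4, TopHat2 2.0.10 and DESeq2 1.4.5. The authors' deposited comparison tables hold normalised signal per library, log2 fold changes, a standard error as a score, and p-values. In these, 319212 of 319212 signal values equalled the added counts over 1 factor per library (tolerance 0.06). Strand use in counting is unknown from the sources used here.

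The 2 runs of a library were added as 1 replicate. The comparisons used the quasi-likelihood test of edgeR 4.0.16 (R 4.3.3) on all 9 libraries, with TMM scaling, filterByExpr, group as the single term and Benjamini-Hochberg adjustment at 0.05 over 18627 of 38250 features. CPM and RPKM were computed from these counts, and the approximate SE is the log2 fold change over the square root of its F statistic. Alternatives used DESeq2 1.42.0, DESeq2 size factors, no filter, single runs, left-out libraries and coding length. The scripts were tested on simulated data. Replicates are biological per the series design, and p-values refer to the spread between pools of embryos. Precision at low levels is limited by reads per gene, which are given for the scarce members.

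Count columns carry library numbers that stand in no label, so columns were tied to groups alone. Consecutive numbers (L222 to L224, L355 to L357, L393 to L395) form 3 sets, and deviations from group means of libraries in one set correlated across genes at 0.187 to 0.462 in all 9 pairs, against -0.427 to 0.0512 in other pairs. The pairing thus comes from the data and the headers, and a blocked fit stands as an alternative.

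The members, marker and partner lists and tests were chosen with earlier results of these data known. The naming rule took all members, editing enzymes and a further short receptor list in every comparison (2 genes that the rule takes are not reported here), from other lists up to 4 genes with the largest change past the threshold and at least 5 CPM in the higher group, of which some are named, and the 3 nearest patterns per member, of which 1 to 3 are named. Gene coordinates are mm9, from the deposited files. Pore sequences come from GENCODE M21 (GRCm38).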

Additional observations from a re-analysis of the deposited data

How the results depend on the processing

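Of the alternatives to the 27 log2 fold changes of members, 436 values kept direction and side of the threshold, 8 crossed to pass and 11 crossed to fail. The other 4 were of Gria4 in DP against PP, near 0 and never past the threshold, which changed sign: -0.012 with single-read runs alone, -0.052 without L222, L223 and L224, and -0.014 to 0.10 when 1 library was left out. For the other named genes, 1599 values kept both, 8 crossed to pass and 22 to fail, and 3 that did not pass changed sign: Grin1 in DP against PP with paired-end runs alone (0.0025) and Frrs1l in Neuron against DP (-0.11 without those 3 libraries, -0.078 to 0.18 when 1 was left out). All 102 alternative counts of features called lay within 1.5 times the main count. In DP against PP, Gria2 passed with the replicate block (0.21) and without L222, L223 and L224 (0.26), and leaving out 1 library gave 0.14 to 0.32. Grik3 passed without those 3 libraries (1.67), and leaving out 1 gave 0.29 to 1.67. Grik4 failed with paired-end runs alone (0.54). In Neuron against DP, Grik4 failed with DESeq2 size factors (-0.41), the DESeq2 test (-0.41), no filter (-0.45), paired-end runs alone (-0.31) and without those 3 libraries (-0.53), and leaving out 1 library gave -0.55 to -0.30. In Neuron against PP, Grik4 passed with single-read runs alone (0.50), and leaving out 1 library gave 0.24 to 0.48. The replicate block changed no other call of a member. Leaving out the 3 libraries of one set was chosen after earlier results were seen. The cause of these shifts was not tested.

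Shares of the class sum moved most with coding length, by construction of the length used. In PP they became 7.57% for Gria3, 3.59% for Gria4, 2.71% for Grik1, 34.6% for Grik2, 0.764% for Grik3, 0.642% for Grik4 and 61.3% for Grik5. In DP they became 92.1% for Gria2, 3.51% for Gria3, 1.20% for Grik1, 43.1% for Grik2, 1.05% for Grik3, 1.01% for Grik4 and 53.7% for Grik5. In Neuron they became 15.4% for Gria1, 8.12% for Gria3, 1.11% for Grik1, 10.8% for Grik2, 57.0% for Grik3 and 30.8% for Grik5. With single-read runs alone, Gria3 in Neuron was 5.93%, Gria4 in PP 4.38% and Grik4 in DP 0.999%. With paired-end runs alone, Gria3 in Neuron was 5.54% and Grik4 in DP 0.762%.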
